A study of Mus musculus with 7 samples.

Results

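The mouse mammary gland held 257 cells that the authors named Luminal-HS-AV in 3 young mice, of 13684 cells in the whole series. HS stands for hormone-sensing and AV for secretory alveolar, and HS-AV cells were those whose cluster showed markers of both luminal lineages. The cells were taken by that deposited name and by the young age group, with no threshold of their own. They are set beside the 1571 HS cells and 794 AV cells of the same 3 mice.

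The study profiled dissociated abdominal #4 mammary glands of nulliparous females in diestrus by single-cell RNA-seq with the 10× Chromium 3′ version 2 chemistry, which counts each captured mRNA as a unique molecular identifier (UMI). Its 3 young mice (Young A, B and C) were 3-4 months old and its 4 aged mice (Aged A, B, C and D) were 13-14 months old. All 7 had a mixed FVB, 129 and C57BL/6J background and gave 1 library each, and no treatment is named. Its purpose was to find how cell types and their expression differ with age, and HS-AV cells were 1 of 13 cell types that it named.

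The luminal layer of the mammary duct has hormone-sensing cells, which carry the receptors for estrogen, progesterone and prolactin, and alveolar secretory cells, which make milk proteins and fat once pregnancy hormones act on the gland. Hormone-sensing cells pass the signal on to their neighbours through secreted factors such as Wnt4. Cells with markers of both lineages are of interest because the lineages are held apart in the adult gland, and because 2 cells caught in 1 droplet, or RNA released by other cells, can give the same reading.

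HS-AV cells were unevenly spread over the young mice, with 12 cells in Young A, 130 in Young B and 115 in Young C. The summed UMIs of these cells were 74114, 624416 and 734214, against 1884791 to 6118862 per mouse for HS cells and 555978 to 2419963 for AV cells. In Young A, 1 UMI of a gene in HS-AV cells was therefore worth 13.5 CPM (UMIs scaled to a total of 1e6 per sum), and low levels there are coarse. Scrublet marked 23 of the 6372 young cells as doublets (0.361%) and 0 of the HS-AV cells, a rate so low that the 0 says little about doublets. The authors had already removed cells with many UMIs or genes, and why the rate was low was not tested. The paper judged the population unlikely to be doublets from Scrublet and DoubletFinder. It also reported that sorted cells with both lineage markers were single under the microscope. Its methods describe that microscopy for cells of organoid cultures. Any pair of the 7 libraries shared 1 to 10 cell barcodes, and 4 of these shared barcodes belonged to an HS-AV cell. The labels name no batch or date of the libraries, so the ages could not be compared within one.

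HS-AV cells made up 1.32% of the epithelial cells of Young A (95% Wilson interval 0.757% to 2.29%), 23.3% in Young B (19.9% to 26.9%) and 8.01% in Young C (6.72% to 9.53%). The young mice differed among themselves far beyond these counting errors. The aged mice had 6, 6, 0 and 4 HS-AV cells, shares of 0.465%, 0.257%, 0% and 0.321%, where 0 of 1127 cells in Aged C allows up to 0.266%. The young mean was 10.9% ± 11.2 (SD, n = 3) and the aged mean 0.261% ± 0.194 (SD, n = 4). All 3 young mice lay above all 4 aged mice, and the difference of 10.6 percentage points gave p = 0.0286 in a two-sided exact permutation test on means, the smallest p that 3 mice against 4 allow. Without Young B the difference was 4.41 points, and with any 1 mouse left out the test can no longer reach 0.05.

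Markers of both lineages were present in the HS-AV cells of the young mice. The authors named the cluster for such markers, so the levels and fits given for them describe that name and do not test it. Prlr, the prolactin receptor (chromosome 15, 10177238-10349180 on the plus strand of mm10), stood at 2267, 1406 and 1649 CPM in HS-AV cells of Young A, B and C, at 1434, 1837 and 1665 in HS cells and at 141, 243 and 204 in AV cells. Mfge8, a milk fat globule protein of secretory cells (chromosome 7, 79133768-79149060, minus strand), stood at 378, 324 and 699 CPM in HS-AV cells, 136, 96.0 and 124 in HS cells and 1523, 2282 and 2374 in AV cells. Prlr in HS-AV cells overlapped HS cells and lay far above AV cells, whereas Mfge8 lay between the other types in every mouse with no overlap. The fit across genes gave a log2 fold change of 0.03 ± 0.20 (SE) for Prlr against HS cells and 2.99 ± 0.22 against AV cells. For Mfge8 it gave 1.91 ± 0.23 and -2.33 ± 0.23.

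The wider marker lists, which the paper also used to identify the types, followed the same pattern. Of 8892 genes tested, 4.06% were called higher and 1.05% lower in HS-AV than in HS cells, and 8.78% were called higher and 8.40% lower than in AV cells, at an adjusted p under 0.05 and a fold of at least 1.25. All 5 HS markers (Prlr, Pgr, Esr1, Cited1 and Prom1) were called higher than in AV cells, with a list median of 2.66 on the log2 scale against -0.03 over all genes. Only Cited1 of these, a transcriptional coregulator of estrogen receptor, was called lower than in HS cells, at 175, 319 and 147 CPM against 560, 514 and 496. Pgr, the progesterone receptor, stood at 108, 102 and 98.1 CPM in HS-AV cells and at 86.7, 104 and 114 in HS cells, so the groups overlapped.

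All 9 AV markers were called higher than in HS cells and lower than in AV cells, with list medians of 2.51 and -2.33. Wfdc18, a secreted whey acidic protein family member, had 2523, 1055 and 3009 CPM in HS-AV cells, 513, 145 and 340 in HS cells and 10038, 6078 and 10984 in AV cells. Ltf, the milk iron-binding protein lactoferrin, varied most between mice, with 0, 32.0 and 696 CPM in HS-AV cells of Young A, B and C. Ltf also varied in AV cells of the same mice, at 64.6, 360 and 2140 CPM. The transcription factor Elf5, which drives alveolar differentiation, stood at 40.5, 51.2 and 39.5 CPM in HS-AV cells, above 15.3 to 18.0 in HS cells and below 178 to 225 in AV cells.

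**Figure D1:**
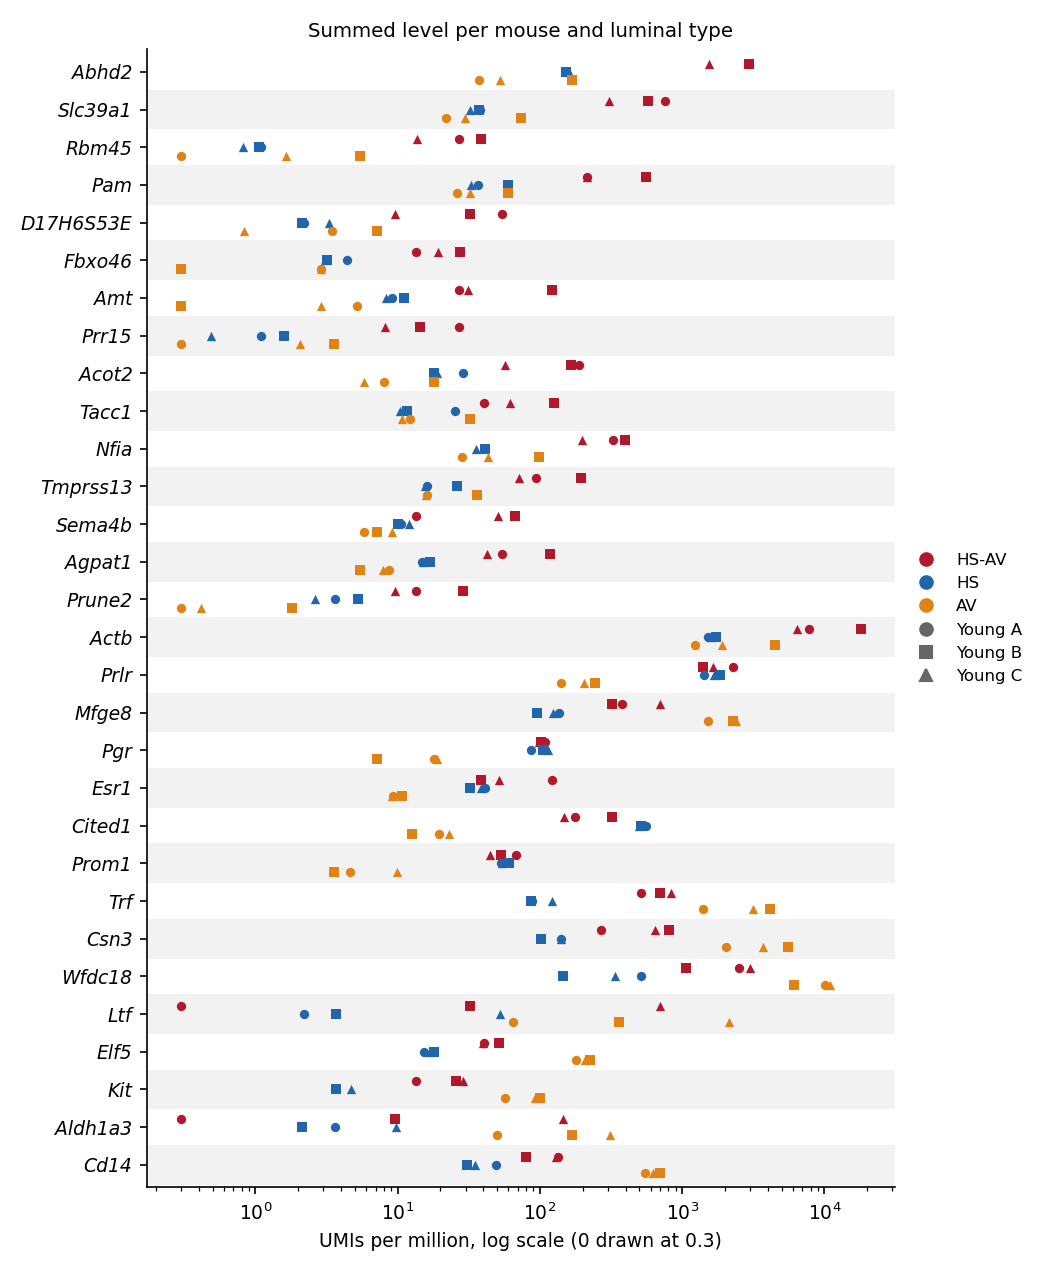
Summed level of each named gene in CPM (log axis, values of 0 drawn at 0.3), with 1 point per young mouse (shape) and luminal type (colour). HS-AV cells sit beside HS cells for Prlr, between HS and AV cells for Mfge8, and above both for Abhd2, Slc39a1 and Actb, in all 3 mice.

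Single HS-AV cells carried both kinds of marker more often than HS or AV cells did, which in large part follows from how the cluster was named. With every cell thinned to 2000 UMIs, which all luminal cells reached, a UMI of Prlr and a UMI of Mfge8 occurred together in 6 of 12, 44 of 130 and 63 of 115 HS-AV cells, or 50%, 33.8% and 54.8%. The shares were 12.6% to 13.7% of HS cells and 13.9% to 20.4% of AV cells. Cells that should lack the pair carried it in 2.50% to 3.70% of myoepithelial cells and 0% to 1.89% of fibroblasts at the same 2000 UMIs. The median cells of these types had held 4295 to 5226.5 UMIs before thinning and HS-AV cells 4416.5 to 5981.5. Prlr was rare in these types (2.17% to 5.68% of cells), but Mfge8 alone was not. Mfge8 was seen in 52.5% to 65.2% of myoepithelial cells and 19.6% to 30.6% of fibroblasts. Its shares were 34.6% to 58.3% in HS-AV cells and 14.0% to 16.4% in HS cells. At least 1 HS marker and 1 AV marker occurred together in 83.3%, 70% and 73.0% of HS-AV cells, against 29.4% to 29.8% of HS cells. Csn3, which encodes the milk protein kappa casein, was seen in 50%, 44.6% and 40% of HS-AV cells and in 8.53% to 10.5% of HS cells. It was also seen in 3.70% to 12.5% of myoepithelial cells and in 2.72% to 3.97% of fibroblasts.

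HS-AV cells did not form 1 tight group between the lineages. A lineage index was computed per cell, the UMIs of the study's HS signature as a percent of its HS and AV signature UMIs together, without ribosomal protein genes. The study chose both signatures on these samples, so the index is no independent evidence. The median HS-AV cell had an index of 66.2 in Young A, 86.1 in Young B and 67.5 in Young C, against 94.5 to 95.1 for HS cells and 18.2 to 24.4 for AV cells. Single HS-AV cells ran from 46.2 to 93.8, from 12.8 to 98.4 and from 27.8 to 98.6 in the 3 mice. In Young B 103 of 130 HS-AV cells had an index over 75, in Young A 4 of 12 and in Young C 45 of 115, and 1, 19 and 17 cells lay within 5 points of that value. An index of 25 to 75 was found in 66.7%, 20% and 60.9% of HS-AV cells, but also in 20.2% to 46.5% of AV cells, and myoepithelial cells, which hold few signature UMIs, had medians of 40.2 to 54.1.

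**Figure D2:**
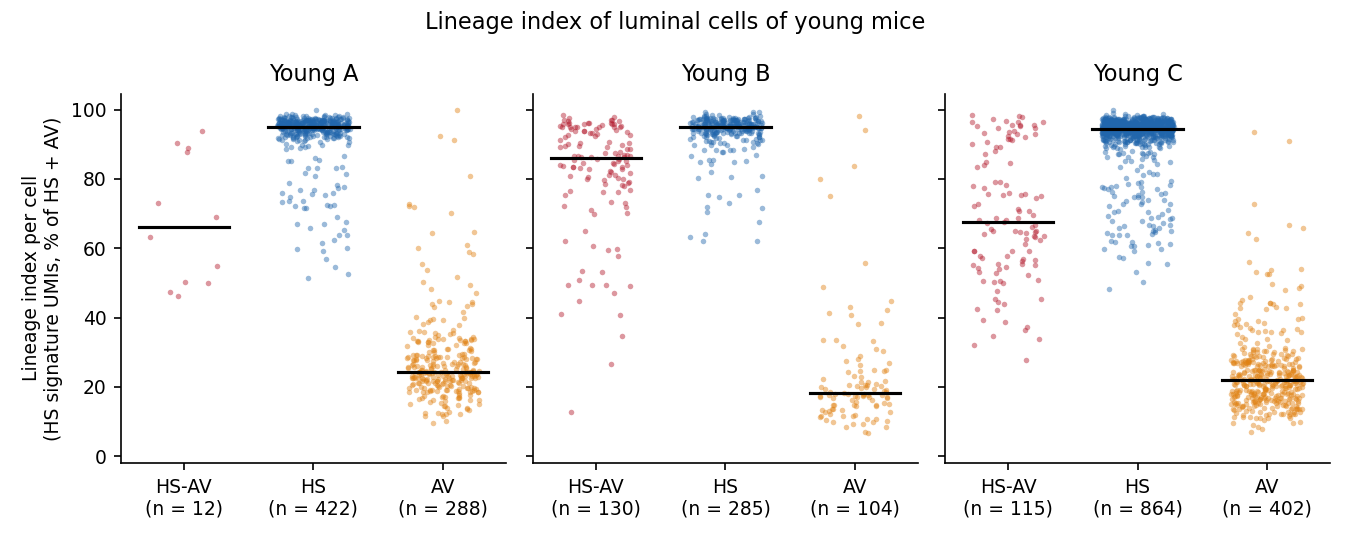
Lineage index per cell (percent of HS and AV signature UMIs that came from the HS signature) in HS-AV, HS and AV cells of the 3 young mice, with 1 point per cell and a black bar at the median. HS-AV cells spread from the AV range to the HS range, and most of those in Young B lie over 75.

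AV markers that are part of the index were higher in HS-AV cells in its middle range, which the index itself fixes. Mfge8 stood at 511, 833 and 946 CPM in cells with an index of 25 to 75 and at 119, 165 and 174 CPM in cells over 75, the latter close to the level of HS cells. Wfdc18 stood at 3824, 1781 and 4237 CPM in the middle range and at 0, 792 and 404 CPM over 75. In Young B the Wfdc18 level over 75 was thus still above the 145 CPM of HS cells. Prlr, which is in neither signature, stood at 2250, 887 and 1431 CPM in the middle range and at 2300, 1577 and 2113 over 75. Abhd2, described next and also in neither signature, was high in both ranges, at 2556, 2160 and 1138 CPM and at 3728, 3206 and 2389 CPM.

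A further group of genes was higher in HS-AV cells than in either lineage. Of the 8892 genes, 102 (1.15%) were called higher in HS-AV cells than in HS and AV cells alike, and 12 (0.135%) lower than in both. Of the 102 genes, 93 were higher than both types in every mouse. The count was 55 when Young B was left out and 60 when every cell was first thinned to 2000 UMIs, which left 5620 genes to test. When cells of all 3 types were restricted to the 10th to 90th percentile of the UMIs of the HS-AV cells of their mouse, 89 genes were called, and 83 of them were among the 102. This kept 8, 104 and 91 HS-AV cells. The median HS cell still held more UMIs in every mouse (6376, 5198.5 and 7024.5 against 5981.5, 4416.5 and 5943). The same window on mitochondrial share, which kept as many HS-AV cells, gave 87 genes, of which 82 were among the 102. The authors drew the cell types from the expression of these same cells, so the adjusted p-values measure how well the mice agree and not whether the types exist.

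Most other genes that separate HS from AV cells were intermediate. Of 1636 genes called higher in HS than in AV cells, 71.2% had a mean level in HS-AV cells between the other types, 19.7% above both and 9.11% below both. Of 1878 genes called higher in AV than in HS cells, 69.7% lay between, 7.61% above both and 22.7% below both. Over all 8892 genes the shares were 41.7%, 25.3% and 33.0%. Genes chosen in the same fit for a gap between HS and AV cells leave more room between them. Part of the larger share between the types thus follows from that choice.

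**Figure D3:**
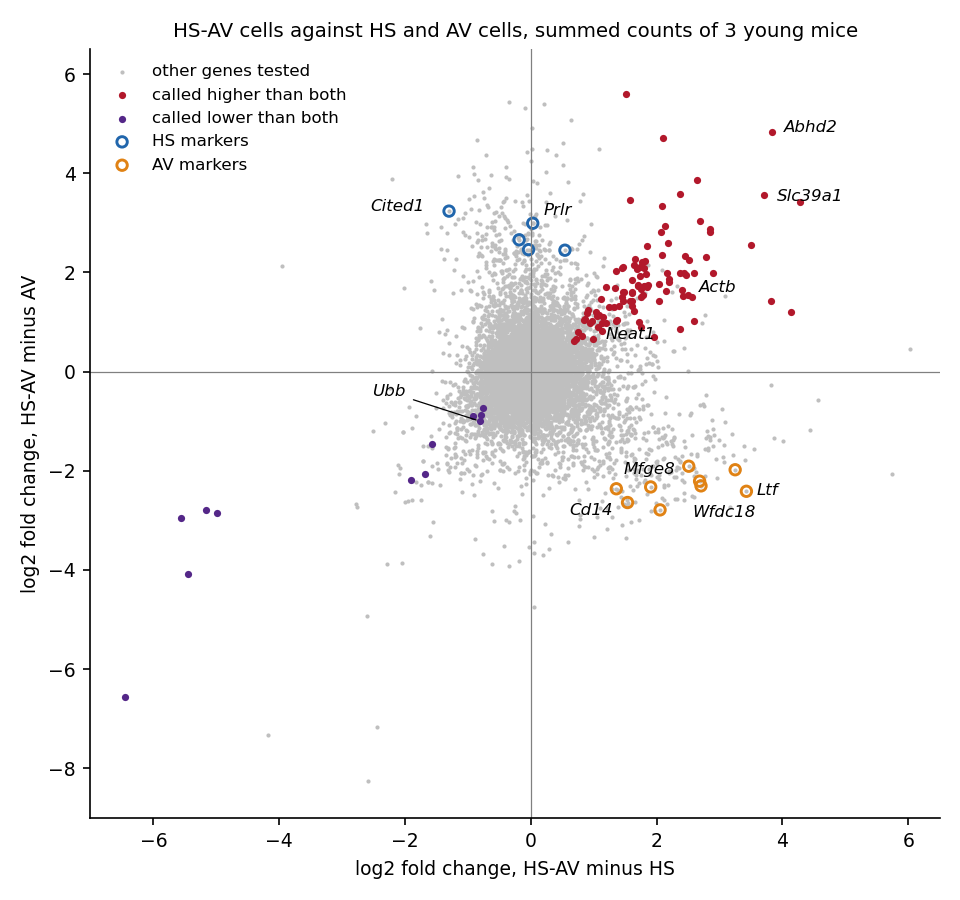
log2 fold change of each of 8892 genes in HS-AV against HS cells (horizontal) and against AV cells (vertical), from summed counts of 3 young mice. HS markers lie at the top near 0 on the horizontal axis, AV markers at the lower right, the 102 genes called higher than both at the upper right and the 12 called lower than both at the lower left.

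Abhd2, an alpha/beta hydrolase known as a lipase that progesterone activates (chromosome 7, 79273199-79365508, plus strand), led the genes higher than both. It stood at 2955, 2942 and 1539 CPM in HS-AV cells of Young A, B and C, at 152, 152 and 160 CPM in HS cells and at 37.5, 169 and 52.5 CPM in AV cells. The lowest HS-AV value was thus far above the highest of the other types, a fold of 14.2 over HS and 28.6 over AV cells in the fit (log2 3.83 ± 0.26 and 4.84 ± 0.28, SE). At 2000 UMIs a UMI of Abhd2 was present in 100%, 96.2% and 80% of HS-AV cells. No other cell type of at least 5 cells reached its HS-AV level in any mouse.

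Slc39a1, a zinc importer of the ZIP family (chromosome 3, 90248172-90253612, plus strand), stood at 756, 577 and 306 CPM in HS-AV cells, 37.9, 37.1 and 32.2 CPM in HS cells and 21.9, 73.7 and 29.8 CPM in AV cells. The fold was 13.1 over HS and 11.8 over AV cells. In Young B the next highest type was pericytes, at 269 CPM.

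Enzymes were among the 15 genes with the largest change against both types. Pam, the enzyme that amidates peptide hormones, stood at 216, 556 and 214 CPM in HS-AV cells against 36.4, 59.4 and 33.0 CPM in HS cells and 26.0, 59.4 and 32.2 CPM in AV cells. Acot2, a mitochondrial acyl-CoA thioesterase, stood at 189, 167 and 57.2 CPM against 18.0 to 28.8 in HS and 5.79 to 18.0 in AV cells. Agpat1, which makes phosphatidic acid for lipid synthesis, stood at 54.0, 117 and 42.2 CPM against 14.9 to 17.0 in HS and 5.40 to 8.66 in AV cells. None of these ranges overlapped. Amt, of the mitochondrial glycine cleavage system, stood at 27.0, 122 and 31.3 CPM in HS-AV cells and at no more than 11.1 CPM in the other types.

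Nfia, a transcription factor of the nuclear factor I family, stood at 324, 399 and 196 CPM in HS-AV cells, 40.8, 40.9 and 35.3 CPM in HS cells and 28.3, 98.9 and 43.0 CPM in AV cells, with log2 fold changes of 2.78 ± 0.25 and 2.32 ± 0.25 (SE). Rbm45, an RNA-binding protein, stood at 27.0, 38.4 and 13.6 CPM against 0.817 to 1.09 in HS cells and 0 to 5.40 in AV cells. Fbxo46, an F-box protein of ubiquitin ligases, and Tacc1, a coiled-coil protein of the centrosome, had folds of 6.45 and 5.47 over HS cells and 8.19 and 5.06 over AV cells.

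At the cell surface, Tmprss13, a transmembrane serine protease, stood at 94.4, 194 and 70.8 CPM in HS-AV cells against 15.7 to 26.0 in HS and 15.7 to 36.0 in AV cells. Sema4b, a transmembrane semaphorin, stood at 13.5, 67.3 and 50.4 CPM against 10.1 to 12.1 and 5.77 to 9.09 CPM. The values of Sema4b, Fbxo46 and Prune2 in Young A were each that of 1 UMI, and those of Rbm45 and Amt that of 2 UMIs. D17H6S53E, Prr15 and Prune2 completed the 15, at folds of 4.28 to 11.3 over HS cells and 5.87 to 26.2 over AV cells, and Prr15 rested on 2, 9 and 6 UMIs. For all 15 genes the lowest HS-AV sum was above the highest HS and AV sum, as for 86 of the 102 genes (84.3%) and 3.32% of all genes tested. These genes were chosen on the same sums, so the lack of overlap largely follows from the choice. Rbm45, Fbxo46, D17H6S53E, Prr15 and Prune2 were too low in HS and AV cells to pass the count filter there. They were tested only because their HS-AV sums passed it, so a gap to the other types was built into their entry. HS-AV cells had the highest level of all types of at least 5 cells in every mouse for 9 of the 15, the exceptions being D17H6S53E, Amt, Tacc1, Sema4b, Agpat1 and Prune2.

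Actb, the cytoskeletal beta actin and by far the most abundant of the 102, was higher than both types as well. It stood at 7799, 17962 and 6396 CPM in HS-AV cells, 1516, 1737 and 1592 CPM in HS cells and 1227, 4480 and 1897 CPM in AV cells, with log2 fold changes of 2.47 ± 0.22 and 1.94 ± 0.21 (SE). Most other actin genes were not called with it. Of 32 actin cytoskeleton genes tested, 3 were called higher than both types (Actb, Myh9 and Actr2), beside 1.15% of all genes. The list medians were -0.13 against HS and 0.05 against AV cells. Myh9, the heavy chain of nonmuscle myosin, stood at 162, 453 and 263 CPM against 65.9 to 85.4 and 42.1 to 122 CPM. Actr2, a subunit of the Arp2/3 complex that nucleates branched actin, had folds of 2.16 and 2.76.

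The endoplasmic reticulum and secretory list gave 3 genes of 21 higher than both (Pam, Hyou1 and Kdelr2), beside 1.15% of all genes. Its medians were -0.08 against HS and 0.25 against AV cells. Kdelr2, the receptor that returns chaperones to the endoplasmic reticulum, stood at 418, 288 and 159 CPM in HS-AV cells against 69.6 to 78.0 in HS and 50.2 to 68.3 in AV cells. Hyou1, a chaperone of the same compartment, had 13.5 CPM in HS-AV cells of Young A, which did not exceed the 14.2 CPM of its HS cells, but 110 and 31.3 CPM in the other mice.

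In the Notch pathway, 2 of 8 genes tested were called higher than both, beside 1.15% of all genes. Notch2, a receptor, stood at 27.0, 83.3 and 43.6 CPM in HS-AV cells against 2.91 to 4.25 in HS cells and 7.50, 41.4 and 12.4 in AV cells. Jag1, a ligand, stood at 13.5, 48.0 and 28.6 CPM against 10.1 to 12.7 and 0.826 to 7.19 CPM. Hey1, a transcriptional repressor that Notch induces, was instead intermediate, called higher than in HS and lower than in AV cells. The list medians were 1.13 against HS and -0.19 against AV cells, beside 0.01 and -0.03 over all genes.

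Among luminal progenitor genes, 7 of 9 tested were called higher than in HS cells and 6 lower than in AV cells. Over all genes the shares were 4.06% and 8.40%. The list medians were 1.54 and -1.77. Sox9, a transcription factor of luminal progenitors, stood at 756, 809 and 956 CPM in HS-AV cells, 445, 484 and 583 in HS cells and 362, 559 and 683 in AV cells. Sox9 was thus highest in HS-AV cells of every mouse, but the call held only against HS cells (adjusted p = 0.0302 by edgeR, against 0.0784 for AV cells). Kit, the stem cell factor receptor, was intermediate in every mouse. Aldh1a3, a retinaldehyde dehydrogenase, was called intermediate by the fit, but its excess over HS cells came mostly from Young C. It differed from HS cells by -3.64, 7.49 and 134.6 CPM in Young A, B and C.

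The study had grouped genes of HS-AV cells by function, and since it chose them on these samples the counts are no independent evidence of their direction. All 6 genes each of its mammary development, chromatin and mRNA processing groups were called higher than both types, and 4 of 6 transcription factors were. Bhlhe41, a basic helix-loop-helix repressor of the clock, stood at 1255, 1243 and 594 CPM in HS-AV cells, 286, 203 and 185 in HS cells and 117, 155 and 99.6 in AV cells. B4galt1, the galactosyltransferase that forms part of lactose synthase, had folds of 3.53 and 4.68. Wtap, of the complex that methylates adenosine in mRNA, stood at 175, 154 and 92.6 CPM against 25.7 to 31.8 and 19.8 to 39.8 CPM.

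A longer list of chromatin modifying enzymes moved far less as a whole than the study's 6. Of 56 such genes tested, 5 were called higher than in HS cells, 6 higher than in AV cells and 4 higher than both. Over all genes the shares were 4.06%, 8.78% and 1.15%. The 4 (Kmt2d, Whsc1l1, Kdm6b and Cbx3) are all among the study's 6, so the longer list added no gene to them. The list medians were 0.25 and 0.10. Kdm6b, a demethylase of histone H3 lysine 27, stood at 364, 410 and 245 CPM in HS-AV cells, 57.2, 46.7 and 49.4 in HS cells and 79.1, 176 and 184 in AV cells. Cbx3, a heterochromatin protein, stood at 486, 335 and 272 CPM against 73.4 to 123 and 44.6 to 105 CPM.

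Of 6 transcripts known to stay in the nucleus, 1 was called higher than both types, beside 1.15% of all genes. It was Neat1, which the study had already placed in its mammary development group of HS-AV genes. Neat1, the long noncoding RNA that builds paraspeckles, stood at 2132, 1196 and 1643 CPM in HS-AV cells, 699, 858 and 793 CPM in HS cells and 690, 950 and 1085 CPM in AV cells. The groups did not overlap, and the log2 fold changes were 0.98 ± 0.20 and 0.65 ± 0.20 (SE). Malat1, the most abundant of the list, stood at 53822, 38751 and 45346 CPM in HS-AV cells, above 34215 to 35606 CPM in HS cells in every mouse, but AV cells reached 43155 CPM in Young B. Neither comparison of Malat1 passed the test (adjusted p = 0.317 and 0.491, edgeR).

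The other nuclear transcripts gave no call against HS cells. Xist, which coats the inactive X chromosome, stood at 1956, 2080 and 1878 CPM in HS-AV cells and at 1870 to 2312 CPM in HS cells. Kcnq1ot1, which lies over an imprinted domain, stood at 67.5, 56.0 and 61.3 CPM, above 33.0 to 44.1 CPM in HS cells (adjusted p = 0.139). Airn, which silences the Igf2r imprinted locus, had log2 fold changes of 0.27 ± 0.56 and 0.02 ± 0.58. Meg3, an imprinted long noncoding RNA, was called lower than in AV cells, at 0, 3.20 and 4.09 CPM against 8.66, 5.40 and 31.8 CPM. Summed, the nuclear list made up 5.80%, 4.21% and 4.89% of the UMIs of HS-AV cells, 3.73%, 3.74% and 3.85% in HS cells and 2.52%, 4.57% and 4.36% in AV cells. The excess over HS cells of 1.19 percentage points was seen in 3 of 3 mice (two-sided exact sign-flip test, p = 0.25, the smallest that 3 mice allow). With cells matched on UMIs the shares were 6.72%, 4.31% and 5.07% in HS-AV cells and 3.81%, 4.23% and 3.84% in HS cells. Little of the excess was then left in Young B. Most of the summed UMIs of this list were Malat1.

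Of 25 splicing factor genes tested that are known for introns kept in nuclear transcripts, 2 were called higher than both types. Over all genes the share was 1.15%. Both genes, Srrm2 and Arglu1, were already in the study's groups of HS-AV genes. The list medians were 0.31 and -0.09. Srrm2, of the spliceosome and of nuclear speckles, stood at 675, 698 and 603 CPM in HS-AV cells, 191 to 209 CPM in HS cells and 178 to 324 CPM in AV cells. Arglu1, a splicing modulator, stood at 162, 133 and 151 CPM against 55.2 to 84.2 and 59.4 to 84.7 CPM. In contrast Srsf7 and Ccnl1 were called lower than in AV cells, and their levels in HS-AV cells were near those of HS cells. The deposited counts are per gene, so spliced and unspliced molecules were not told apart.

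Part of the HS program was lower than in HS cells. Of 26 HS signature genes, which the study chose on these samples, 16 were called lower than in HS cells and 18 higher than in AV cells. Ptn, a secreted growth factor, stood at 2348, 5663 and 3058 CPM in HS-AV cells, 8393, 7920 and 6061 in HS cells and 425, 408 and 295 in AV cells. By contrast, in the hormone pathway 2 of 20 genes were called lower than in HS cells and 12 higher than in AV cells. Over all genes the shares were 1.05% and 8.78%. The hormone list medians were 0.24 and 1.70. Wnt4, the progesterone-induced paracrine signal, stood at 540, 186 and 221 CPM in HS-AV cells and 467, 222 and 182 in HS cells.

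Housekeeping lists differed in which comparison gave more calls. Nuclear encoded oxidative phosphorylation genes had a median of -0.43 against HS and 0.12 against AV cells, with 3 of 80 called lower than in HS cells and 11 higher than in AV cells, and made up 2.95% to 3.06% of UMIs in HS-AV cells against 3.67% to 4.03%. Proteasome subunits had a median of -0.48 against HS cells, with 4 of 37 called lower than in HS cells and 1 higher than in AV cells. Over all genes 1.05% were called lower than in HS cells and 8.78% higher than in AV cells. Psma1, a subunit of the catalytic core, stood at 67.5, 110 and 85.8 CPM against 161 to 188 CPM in HS cells. The 13 mitochondrially encoded genes had a median of -0.08 against HS and 0.06 against AV cells, and the 7 chaperonin subunits -0.34 and -0.28.

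Against AV cells, genes of the early response to stimulation were lower. Of 22 immediate early genes, 18 were called lower than in AV cells and 3 higher than in HS cells, with medians of -1.12 and 0.20. Over all genes 8.40% were called lower than in AV cells, 4.06% higher than in HS cells and 1.05% lower than in HS cells. Ier2 stood at 432, 639 and 327 CPM in HS-AV cells, 326 to 513 in HS cells and 864 to 1746 in AV cells. Sik1, a salt-inducible kinase, was the exception and was called higher than both types, at 297, 517 and 234 CPM against 55.1 to 68.5 and 115 to 255 CPM. Of 15 heat shock and ubiquitin genes, 8 were called lower than in AV cells and 1 lower than in HS cells. The heat shock gene Hspa1a stood at 229, 778 and 234 CPM in HS-AV cells, 229, 700 and 330 in HS cells and 702 to 1768 in AV cells. HS-AV cells of Young B thus lay above the HS range. Of the 80 ribosomal protein genes, 19 were called lower than in AV cells.

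Milk and alveolar genes were again intermediate, with 9 of 11 called higher than in HS and 10 lower than in AV cells. Over all genes the shares were 4.06% and 8.40%. Lalba, the milk protein alpha-lactalbumin, stood at 0, 92.9 and 46.3 CPM in HS-AV cells, at most 5.72 in HS cells and 10.4, 158 and 162 in AV cells. Of 9 proliferation genes only Tubb5, a beta tubulin, was called higher than both, beside 1.15% of all genes. By the deposited phase calls, 50%, 40% and 27.8% of HS-AV cells were in S or G2M, against 80.9%, 59.6% and 58.5% of AV cells and 40.8%, 31.6% and 36.5% of HS cells. These calls are scores set against the rest of each cell's expression and are no measure of division on their own.

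Few genes were lower than both types. Besides 4 hemoglobin genes, 8 genes were called, and all 8 were lower in every mouse. Ubb, a polyubiquitin gene, stood at 1120, 2923 and 1866 CPM in HS-AV cells, 3629, 3119 and 3036 in HS cells and 3246, 4142 and 3088 in AV cells, a log2 fold change of -0.81 ± 0.22 (SE) against HS cells, and was also called lower than in AV cells (adjusted p of edgeR 0.000405). Fbxl4, an F-box protein of mitochondria, had 0 UMIs in HS-AV cells of all 3 mice and 3.71 to 9.11 CPM in the other types, so no fold is given. Aimp2, a scaffold of the multi-tRNA synthetase complex, Alkbh3, a demethylase of alkylated nucleic acid, and Gnptg, of the lysosomal enzyme tagging pathway, had folds of 2.77 to 4.57. Gsto1, a glutathione transferase, Tmem59 and Gm8797 had folds of 1.67 to 1.88. These calls were less firm than those of the 102: DESeq2 made 1 such call, and the fit without the mouse block 1.

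The hemoglobin calls rested on a handful of HS and AV cells. In Young B a single HS cell held 3041 of the 3083 hemoglobin UMIs of HS cells, and in Young C 2 cells held 93.8% of 3068. In AV cells of Young B, 2 cells held 96.4% of 338. Without cells of 10 or more hemoglobin UMIs, the HS-AV cells had 0, 40.0 and 21.8 CPM, HS cells 35.7, 22.3 and 31.1 and AV cells 16.2, 21.6 and 14.0, and the groups overlapped.

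Each list of markers of other cell types made up at most 0.130% of UMIs in HS-AV cells, but in some mice more than in HS and AV cells. The 10 endothelial and pericyte markers made up 0.0256%, 0.130% and 0.0170% of UMIs in HS-AV cells, 0.0158% to 0.0386% in HS and 0.0238% to 0.0651% in AV cells. In Young B this was mostly Fabp4, a fatty acid carrier of endothelial and fat cells, at 1150 CPM against 296 in HS and 525 in AV cells. The 11 myoepithelial markers made up 0.00191% to 0.0218% of UMIs in HS-AV cells and 0.00320% to 0.0225% in HS and AV cells, the 7 fibroblast markers 0.0114% to 0.0181% and 0.00679% to 0.0424%, and the 9 immune markers 0.00540% to 0.0206% and 0.00711% to 0.0187%. Within Young B, fibroblast markers made up 0.0181% in HS-AV cells against 0.00679% in HS and 0.00917% in AV cells, and myoepithelial markers 0.0218% against 0.00525% and 0.0225%. Within Young C, immune markers made up 0.0206% against 0.00858% and 0.0122%. Of the markers that passed the filter in these lists, Tagln, of smooth muscle, and Cd74, of antigen presentation, were called higher than in HS cells, and Eng, an endothelial receptor, higher than in AV cells. Tagln stood at 0, 32.0 and 2.72 CPM, so its call came from Young B, and without that mouse its log2 fold change was -0.71. The part of these transcripts in the other differences was not tested.

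HS-AV cells were shallower than HS cells of the same mouse. The median HS-AV cell held 5981.5, 4416.5 and 5943 UMIs in Young A, B and C, the median HS cell 6588, 6641 and 7106 and the median AV cell 5373, 4864 and 5602.5. HS-AV cells were below HS cells in 3 of 3 mice, by 1331 UMIs on average, and on either side of AV cells. The exact two-sided sign-flip test over 3 mice cannot go below p = 0.25, the value of this difference, and so cannot reach the threshold for any measure of this kind.

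The genes detected per cell followed the depth, with medians of 1931, 1471.5 and 1808 in HS-AV cells, 2007.5, 1866 and 1993 in HS cells and 1651, 1518 and 1655.5 in AV cells. At 2000 UMIs per cell the medians were 865, 870.5 and 848 genes in HS-AV cells, 905, 858 and 863 in HS cells and 814, 780.5 and 817.5 in AV cells. At equal depth HS-AV cells were thus above AV cells in every mouse and on either side of HS cells.

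The mitochondrial share of UMIs, often read as a sign of damaged cells, was 4.92%, 5.50% and 3.66% in the median HS-AV cell, 5.01%, 5.20% and 4.27% in HS cells and 3.93%, 3.82% and 2.99% in AV cells. It exceeded that of AV cells in 3 of 3 mice, by 1.11 percentage points (p = 0.25, exact sign-flip), and differed from that of HS cells by -0.14 points by medians, in no common direction. By means over cells it was lower than in HS cells in 3 of 3 mice, by -0.352 points on average (p = 0.25, exact sign-flip). The authors had removed cells of high mitochondrial share, and the highest HS-AV cell of a mouse had 7.26% to 9.96%. Ribosomal protein genes made up 30.7%, 26.7% and 33.2% of UMIs in HS-AV cells, 26.3% to 29.0% in HS and 32.7% to 37.5% in AV cells. The 50 most abundant genes took 34.4%, 32.8% and 34.0% of UMIs in HS-AV cells, more than in HS cells of the same mouse (29.8%, 31.9% and 31.3%).

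**Figure D4:**
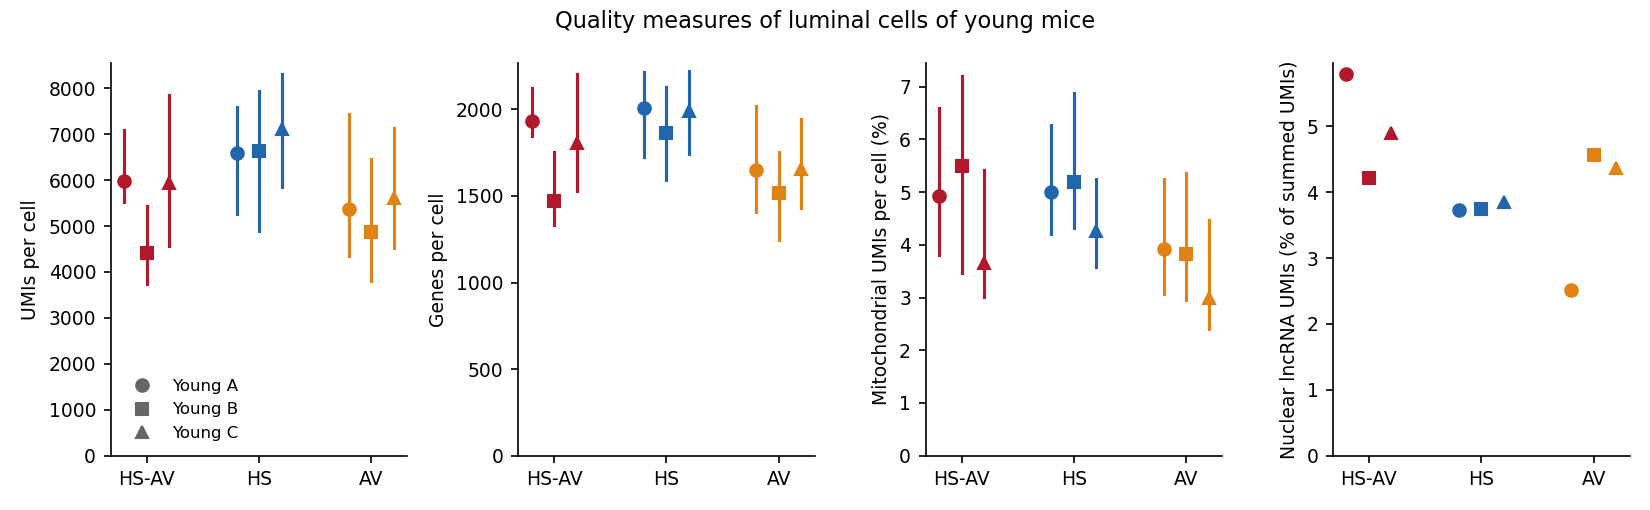
UMIs, genes and mitochondrial share per cell (points are medians, bars the quartiles over cells) and the summed share of UMIs from nuclear long noncoding RNAs (1 point per sum), by luminal type and young mouse. HS-AV cells have fewer UMIs than HS cells in each mouse, a mitochondrial share above AV cells, and more nuclear RNA than HS cells.

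The 102 genes were also followed in single cells, as the share of a cell's UMIs that came from 101 of them, Actb left out because it would outweigh the rest. The genes were chosen from these sums, so the values are a description. The share was 2.01%, 2.10% and 1.37% over HS-AV cells, 0.481% to 0.503% over HS cells and 0.433% to 0.629% over AV cells. It exceeded 1% in 12 of 12, 128 of 130 and 90 of 115 HS-AV cells, in 3.79% to 4.21% of HS cells and in 0.694%, 17.3% and 6.47% of AV cells. Across HS-AV cells of a mouse the share had a Spearman correlation with UMIs of -0.22, -0.10 and -0.32 and with the mitochondrial share of -0.29, -0.09 and -0.02 (n = 12, 130 and 115 cells of 1 library each), and the measures share the cell's total as their denominator.

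**Figure D5:**
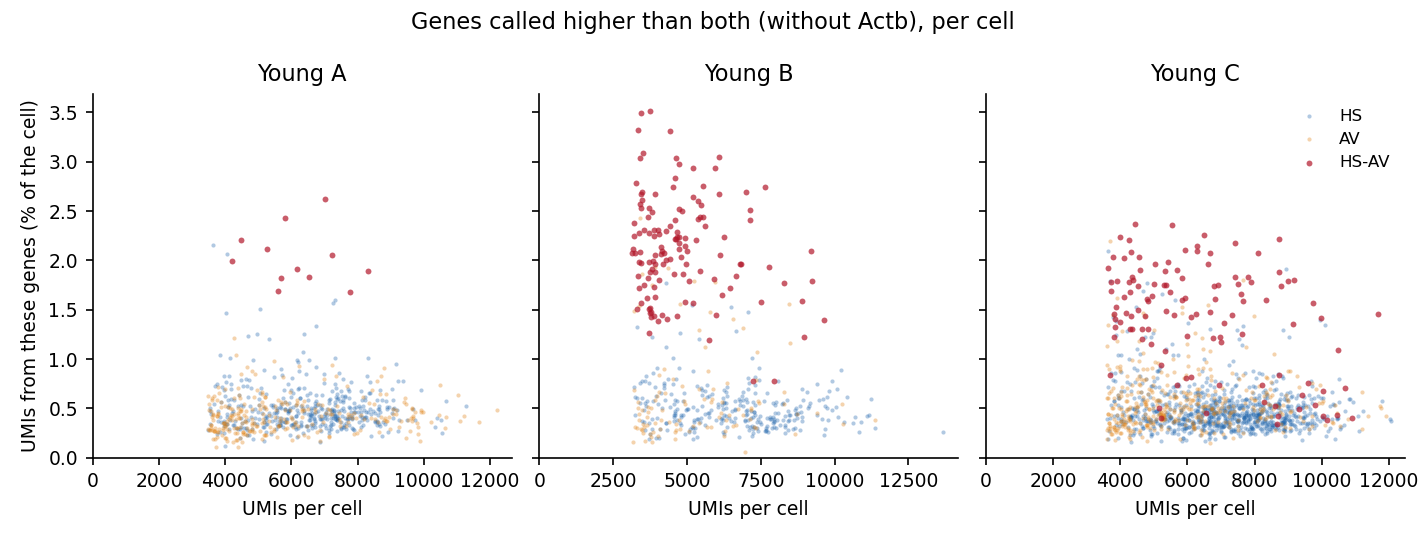
Share of each cell's UMIs from the 101 genes (vertical, percent) against its UMIs (horizontal) in the 3 young mice, with 1 point per cell. Almost all HS-AV cells of Young A and B lie over 1% at every depth, while in Young C a group of HS-AV cells lies among the HS and AV cells.

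In Young C, 16 of 115 HS-AV cells (13.9%) were at or below the 90th percentile of HS cells for this share, against 0 in Young A and Young B, and 9 HS-AV cells lay within 0.1 percentage points of that value. These 16 cells had median values of 9374 UMIs and 2311 genes, against 5611 UMIs and 1764 genes in the other 99, and a median lineage index of 55.9 against 70.8. Their Actb level, which the share leaves out, was 1444 CPM against 7583 CPM. Their Abhd2 level was 63.4 CPM against 1893 CPM, but Abhd2 is one of the 101 genes, so the split itself sets that gap. Actb was chosen on the same sums as the 101 genes, so its gap is no independent evidence either.

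High shares of the 101 genes were also seen in other cell types. They exceeded 1% in 18 of 71 pericytes of Young B (25.4%), against 4 of 121 in Young A (3.31%) and 1 of 39 in Young C (2.56%). Among vascular endothelial cells they did so in 2.20%, 7.67% and 6.21% of the cells of Young A, B and C, and among myoepithelial cells in 2.14%, 10% and 11.1%. The part of such cells in the HS-AV results was not tested.

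The direction of the genes was next read in mice that had no part in calling them. The authors had clustered the cells of all mice together on these expression values. Genes that mark the cluster are thus prone to be high in every mouse, and the figures are a description and no independent evidence. Of 88 genes called from Young B and C, 76 were also above both types in Young A (86.4%, against 28.9% of all genes tested). For Young B the figures were 53 of 55 (96.4% against 26.8%), and for Young C 65 of 69 (94.2% against 28.3%). In the pooled aged mice, with 16 HS-AV cells and 77573 UMIs, 84 of the 102 genes were above both types (82.4% against 36.1% of all). Among genes with a UMI in aged HS-AV cells the shares were 90.3% of 93 and 51.6% of 6227.

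Some of the leading genes were also high in the few aged HS-AV cells. Abhd2 stood at 2787, 1832 and 2694 CPM in HS-AV cells of Aged A, B and D, against 259, 214 and 200 CPM in their HS cells. Actb stood at 12029, 6523 and 8732 CPM against 3303, 1845 and 2198 CPM. Of the 15 genes named above, however, 5 (Rbm45, D17H6S53E, Prr15, Agpat1 and Prune2) had 0 UMIs in aged HS-AV cells and 2 (Sema4b and Fbxo46) had 1 UMI each. The lineage index of aged HS-AV cells was 90.5, 93.2 and 94.2 in the median cell, and all 16 cells lay over 75. Mfge8 stood at 147, 36.6 and 217 CPM in aged HS-AV cells and at 196, 106 and 243 CPM in aged HS cells, below HS cells in every aged mouse, where 3 UMIs amount to 110 to 130 CPM. With so few cells no test was made between the ages.

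The 102 genes were longer than the average gene tested, which was not put to a test. By the GENCODE vM21 annotation of GRCm38, which is mm10, 98 of them had a gene model and 97 were protein coding. Their median span was 33.9 kb and their median exonic length 5.56 kb, against 22.7 kb and 4.38 kb over all genes tested. The genes called lower in HS-AV than in HS cells had medians of 10.5 kb and 2.07 kb. None of the 15 named genes higher than both overlapped another gene on its own strand, whereas Prlr overlapped the predicted gene Gm21973.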

How the data were processed

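Single-cell RNA was measured in 7 mice. The authors aligned reads with Cell Ranger 2.0 to mm10 (as in the submitters' processing notes), filtered cells on depth, gene number and mitochondrial share, and deposited unnormalized UMI counts of each gene in each cell, beside the cell's mouse, type and phase. The mitochondrial share was deposited by the authors as a fraction of a cell's UMIs. Numbers of UMIs and genes were taken from the matrix, which differed from the deposited numbers in 2263 of 13684 cells, by at most 22 UMIs.

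Counts of HS-AV, HS and AV cells were summed per young mouse (9 sums), passed through filterByExpr and TMM scaling, and tested by edgeR 4.0.16 (quasi-likelihood) with the mouse as a block, since cells of 1 mouse share the animal and library. Adjusted p-values are Benjamini-Hochberg over 8892 genes. TMM factors were 0.904 to 1.06, except 1.25 for HS-AV cells of Young A. CPM in the text are UMIs over the total of the sum, times 1e6. Per-mouse measures were compared by exact tests in scipy 1.17.1. The fit was tested on simulated data. Confidence intervals and limits from a count of 0 cover counting error only. R 4.3.3, DESeq2 1.42.0, Scrublet in scanpy 1.11.5 and Python 3.11.15 were used.

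The genes named are all HS and AV markers, the 15 called higher and the 10 called lower than both types with the largest smaller fold change that went the same way in every mouse (8 were lower), all nuclear noncoding RNAs tested, and the members of each other list with the largest mean fold change. Cells, lists and tests were chosen with earlier results of these data known. The alternatives comprised other tools, scalings and filters, matched or thinned cells, and leaving out each mouse.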

Additional observations from a re-analysis of the deposited data

Results flagged for a closer look

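Mfge8 went opposite ways against HS cells in the young and aged mice. HS-AV cells exceeded HS cells in all 3 young mice, by 348 CPM on average, and lay below them in all 3 aged mice that had HS-AV cells, by a mean difference of -47.8 CPM. The aged values rest on 10 UMIs of Mfge8 in 16 cells, and the difference between the ages was not tested. Of 29 genes compared in this way, 5 others also went opposite ways, but each had 0 UMIs in the aged HS-AV cells.

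Pericytes of Young B, a cell type outside the comparisons of luminal cells, had over 1% of their UMIs from the 101 genes in 25.4% of cells, above the shares in pericytes of Young A and Young C. The part of this in the HS-AV cells of that mouse was not tested.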

How the results depend on the processing

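Of 2487 recomputed values of named genes that had been called, 2194 held their direction and call, 291 lost the call and 2 reversed. The 15 genes named as higher than both types held all 30 of their values under DESeq2, RLE factors, no scaling, no filter and no replicate block. They lost 3 calls without Young B, 3 without Young C, 1 without Young A and 1 with cells matched on mitochondrial share. With cells thinned, drawn to equal number or matched on UMIs, 18, 20 and 24 of the values could be tested, and these held. The counts below are of genes called, in the order higher than HS (361 as reported), lower than HS (93), higher than AV (781), lower than AV (747), higher than both (102) and lower than both (12).

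Without the replicate block for the mouse the counts were 182, 9, 565, 412, 70 and 1. With each mouse left out in turn they ranged over 148 to 393, 25 to 115, 434 to 783, 359 to 699, 55 to 88 and 5 to 12. With cells thinned to 2000 UMIs they were 169, 41, 409, 454, 60 and 7, with 5620 genes tested. Genes lower than HS cells numbered 50 with DESeq2, 182 with no filter, 58 with cells matched on UMIs, 60 with HS and AV cells drawn to the number of HS-AV cells and 44 at a fold of at least 2. Genes lower than both numbered 1, 6 and 4 with DESeq2, cells matched on UMIs and cells drawn to equal number. The cause of these shifts was not tested, beyond the smaller number of genes and cells.

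The young minus aged difference in share ranged from 4.41 to 15.4 percentage points with a mouse left out. The difference in UMIs from AV cells was 167 by medians, -6.35 by means and ranged from -53.5 to 474.5 with a mouse left out. The difference in mitochondrial share from HS cells was -0.352 by means and ranged from -0.352 to 0.104 points with a mouse left out. The share in S or G2M minus that of HS cells was 3.01 points by the deposited calls, ranged from -0.11 to 8.83 with a mouse left out and, for cells with a UMI of Mki67 or Top2a, was -2.28. With a mouse left out the log2 fold change of Tagln against HS cells ranged from -0.71 to 2.51, that of Fabp4 against AV cells from -0.91 to 0.37 and that of Hba-a1 against AV cells from -4.54 to 0.29, each reversed without Young B.

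With 12 HS-AV cells in Young A, genes of low level were not resolved there, and 3 mice set the limit of every exact test.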
